A study of Mus musculus with 14 samples.

Results

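The respiratory chain ends with complexes III and IV, joined by the mobile carrier cytochrome c, and its proton gradient drives complex V, the ATP synthase. Nuclear genes for these complexes were selected by symbol: genes beginning with Uqcr, with Cox followed by 4 to 8, or with Atp5, together with Cyc1 and Cycs. The selection found 44 of the 18193 genes on the array, of which 9 belong to complex III, 17 to complex IV and 17 to complex V, and 1 is Cycs, the gene for cytochrome c. They were measured in messenger RNA bound to ribosomes of dopaminergic neurons, on 14 mouse expression arrays, and each gene was read by its brightest probe set in log2 units of robust multi-array average (RMA) signal.

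The Tfr1-null mice, designated Tfr1ΔDN, lack transferrin receptor 1, the protein by which cells take up transferrin-bound iron, in dopaminergic neurons only. The controls were not wild type but heterozygotes at Tfr1. All mice also carried Ribotag, which adds an epitope to a ribosomal protein so that the ribosomes of 1 cell type can be precipitated from whole ventral midbrain with their messenger RNA, and were F2 of 129Sv and C57BL/6. As titled, there were 4 Tfr1-null and 3 control libraries at 3 weeks of age, and 3 Tfr1-null and 4 control libraries at 10 weeks. Neither the promoter driving Cre recombinase nor the deleted exons are stated in the labels. The labels do not say whether libraries came from separate animals, so p-values measure only the spread between these libraries. Age is the second variable: the comparison asks whether the genes differ with genotype at the earlier and at the later age.

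Complex III passes electrons to cytochrome c through heme groups and the iron-sulfur cluster of the Rieske protein, Uqcrfs1. Complex IV uses heme and copper to reduce oxygen, and several of its small subunits exist as isoforms that differ between tissues, such as Cox6a2, Cox7a1 and Cox8b of heart and skeletal muscle. Complex V holds no iron or heme and makes ATP by rotation. Dopaminergic neurons fire continuously and depend on this ATP, and iron is needed to make both heme and iron-sulfur clusters.

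Before the comparisons, 2 libraries need comment. The library labelled Tfr1-null 3 weeks 1 is titled Tfr1-null but has a control source name. On the middle control probe set for transferrin receptor 1 it read 8.82, against 10.70 to 10.98 in the other Tfr1-null libraries and 8.80 to 8.86 in the controls of that age. The library labelled control 10 weeks 1 read 11.43 on that probe set, against 11.39 to 11.69 in Tfr1-null libraries and 9.17 to 9.86 in the other controls. The probe set for the 5′ end ran the other way at 3 weeks, with 6.88 to 7.73 in Tfr1-null libraries 2 to 4, 9.67 in the library labelled Tfr1-null 3 weeks 1, and 9.50 to 9.59 in controls. Where these probes lie relative to the deletion is not given, so they do not prove a genotype, but both libraries lie with the opposite label. Genotype differences were therefore fitted to all 14 libraries as titled and to the 12 without these 2. Each gene called in 12 libraries is given with its value in 14. A shift in scale separated the ages, with array medians of 6.41 to 6.47 at 3 weeks and 7.36 to 7.43 at 10 weeks, so no level is compared between ages. High Eif2s3y, a Y-linked gene, with low Xist, a transcript of the inactive X chromosome, was found in 1 of 7 libraries at 3 weeks (control 2) and in 7 of 7 at 10 weeks, so sex and age cannot be told apart.

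Promoters are shown for 4 genes on which the results turn: Cox7a1 changed at both ages, and Cox7a2, Uqcr11 and Atp5e changed at 10 weeks. The sequences are the 250 bases before the start of each gene, from RefSeq for GRCm38.p6, written along the strand of the gene. Windows were found for 33 of the 44 genes. Capitals mark matches on either strand to the core ACGTG, which hypoxia-inducible factors bind, or to CCGGAAG, bound by ETS factors such as nuclear respiratory factor 2.
Cox7a1, chr7:30183921-30184170, plus strand: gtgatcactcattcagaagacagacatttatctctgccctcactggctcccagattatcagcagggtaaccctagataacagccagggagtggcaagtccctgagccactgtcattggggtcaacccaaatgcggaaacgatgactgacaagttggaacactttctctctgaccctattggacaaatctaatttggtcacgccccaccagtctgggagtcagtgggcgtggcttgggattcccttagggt
Cox7a2, chr9:79759854-79760103, minus strand: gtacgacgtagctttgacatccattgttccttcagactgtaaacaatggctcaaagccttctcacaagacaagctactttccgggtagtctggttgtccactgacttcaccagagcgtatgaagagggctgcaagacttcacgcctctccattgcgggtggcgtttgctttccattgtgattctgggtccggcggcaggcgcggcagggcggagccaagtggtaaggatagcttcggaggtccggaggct
Uqcr11, chr10:80406822-80407071, minus strand: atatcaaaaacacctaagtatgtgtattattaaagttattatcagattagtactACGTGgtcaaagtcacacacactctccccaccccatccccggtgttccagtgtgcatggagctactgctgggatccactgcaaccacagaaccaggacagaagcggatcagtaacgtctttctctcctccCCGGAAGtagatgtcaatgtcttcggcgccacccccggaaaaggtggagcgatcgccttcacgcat
Atp5e, chr2:174464102-174464351, minus strand: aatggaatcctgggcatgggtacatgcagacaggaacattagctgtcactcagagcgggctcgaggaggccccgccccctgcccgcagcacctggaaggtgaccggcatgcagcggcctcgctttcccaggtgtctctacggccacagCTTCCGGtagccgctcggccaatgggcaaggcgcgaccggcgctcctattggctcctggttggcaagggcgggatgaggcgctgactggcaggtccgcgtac

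The windows of Cox7a1 and Cox7a2 held none of 4 motifs searched, namely these 2, the 10-base palindrome of nuclear respiratory factor 1 and AAGATGGC of YY1. In the window of Uqcr11, ACGTG began 196 bases and CCGGAAG 66 bases before the start, and in that of Atp5e the ETS motif lay on the opposite strand, 102 bases before the start. No motif of the 4 contains another. CCGGAAG or its complement was in 8 of the 36 windows of the selected genes (22.2%), in 5 of the 12 windows of genes that fell at 10 weeks (41.7%) and in 6.91% of 32851 promoter windows. For ACGTG the shares were 27.8%, 41.7% and 16.6%, and for the motif of nuclear respiratory factor 1 8.33%, 8.33% and 0.782%. AAGATGGC was in 1 window of the selected genes, which was 1 of the 12, or 2.78% and 8.33%, against 1.56% of all windows. These matches describe letters and were not tested as binding sites.

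At 3 weeks the 3 complexes were close to the controls, apart from some tissue isoforms of complex IV. In the fit to 12 libraries, 2 of 44 genes passed an adjusted p of 0.05 by limma with Benjamini-Hochberg adjustment over all genes, beside 1.84% of all genes. Cox6a2 rose (all genes rising, 0.682%) and Cox7a1 fell (all genes falling, 1.16%). The other 42 genes did not pass, among them the isoforms Cox6b2 at -1.15 and Cox7b2 at -0.67. The median difference, Tfr1-null minus control, was -0.003 log2 units for complex III, 0.02 for complex IV and 0.002 for complex V, and 19 of the 44 genes lay below 0. Every Tfr1-null library was below every control for 3 of the 44 (all genes 11.6%) and above for 2 (all genes 13.3%). With all 14 libraries limma called 0 of 44 genes, beside 0 of 18193 genes in all (0%). At an unadjusted p under 0.05, 2 of the 44 and 849 of all genes passed in that fit. There, every library titled Tfr1-null was below every control for 2 of the 44 (all genes 4.52%) and above for 0 (all genes 3.64%).

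Cox7a1, the muscle isoform of subunit 7a, had the largest fall of the selected genes at 3 weeks. Its signal was 6.16, 7.02 and 6.91 in Tfr1-null libraries 2 to 4 and 8.54 in the library labelled Tfr1-null 3 weeks 1, against 8.73, 8.77 and 8.87 in controls. Every library titled Tfr1-null was below every control, and the doubtful one was the nearest to them. The difference was -2.09 log2 units (SE 0.27, adjusted p = 0.00205, limma, 12 libraries), a signal of 0.234 times that of controls. With all 14 libraries it was -1.63 (SE 0.49, adjusted p = 1, limma). At 10 weeks Cox7a1 read 8.15, 8.07 and 8.97 in Tfr1-null libraries, against 9.64, 10.18 and 9.65 in controls 2 to 4 and 8.44 in the library labelled control 10 weeks 1. The doubtful control lay within the Tfr1-null range and the other controls above it. The difference was -1.43 (SE 0.27, adjusted p = 0.00872, limma, 12 libraries), or 0.372-fold, and -1.08 with all 14 libraries (adjusted p = 0.242, limma). Leaving out any 1 of the 12 libraries kept the call at both ages, but the 10-week call was lost with array weights and in a fit without the 3-week libraries, at an adjusted p of up to 0.0804 by limma.

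Cox6a2, the muscle isoform of subunit 6a, went the other way. It read 8.31, 8.21 and 7.76 in Tfr1-null libraries 2 to 4 and 7.32 in the library labelled Tfr1-null 3 weeks 1, against 7.35, 7.05 and 6.97 in controls. Only the doubtful library overlapped the controls. The difference at 3 weeks was 0.97 (SE 0.17, adjusted p = 0.0126, limma, 12 libraries), or 1.96-fold, and 0.77 with all 14 (adjusted p = 1, limma). That call was lost, at an adjusted p of 0.069 to 0.072 by limma, when control 2, control 3, Tfr1-null 2 or Tfr1-null 3 was left out. At 10 weeks Cox6a2 read 9.42, 9.34 and 8.94 in Tfr1-null libraries, against 8.01, 7.97 and 7.99 in controls 2 to 4 and 9.18 in the library labelled control 10 weeks 1. Here too only the doubtful library overlapped the other group. The difference was 1.24 (SE 0.17, adjusted p = 0.00127, limma, 12 libraries), or 2.37-fold, and it passed without any 1 of the 12 libraries; with all 14 it was 0.95 (adjusted p = 0.121, limma). A second, dimmer probe set of Cox6a2 gave 0.46 at 3 weeks (adjusted p = 0.303) and 0.91 at 10 weeks (adjusted p = 0.00567), from limma over all probe sets in 12 libraries. With all 14 it gave 0.40 and 0.78 and passed at neither age.

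**Figure D1:**
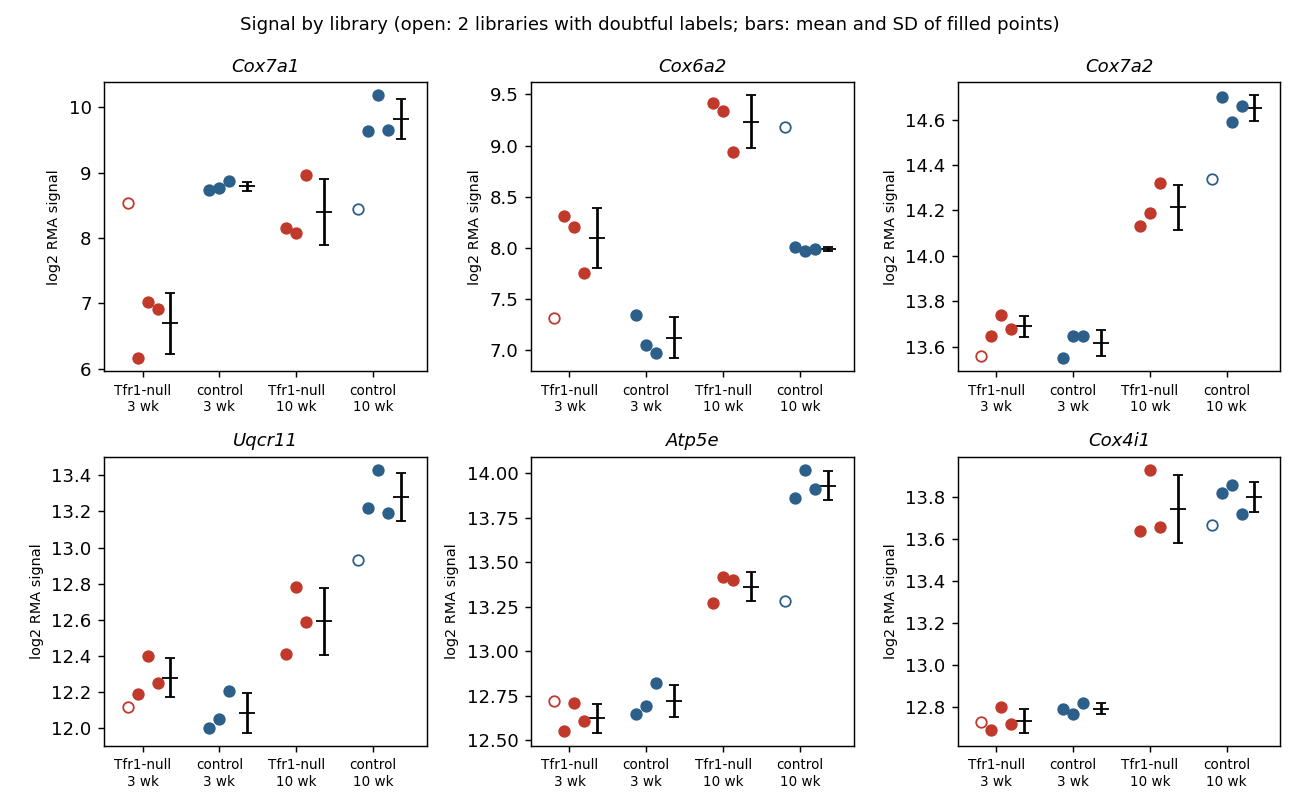
Log2 RMA signal (y axis) of 6 genes in each library, by genotype and age (x axis); open circles are the 2 libraries with doubtful labels, and bars are mean and SD of the filled points. For Cox7a1 and Cox6a2 the filled points of the 2 genotypes separate at both ages, for Cox7a2, Uqcr11 and Atp5e at 10 weeks, and for Cox4i1 the 10-week groups overlap.

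Markers of other cells were read beside the isoform results, because Ribotag precipitates can carry RNA of other cells. The mean level over 8 pericyte and smooth muscle markers at 3 weeks was 7.13 to 7.44 in Tfr1-null libraries 2 to 4 and 6.91 to 7.59 in controls, and 0 of the 8 was called by limma in 12 libraries. Over 6 GABAergic markers the ranges were 9.11 to 9.70 and 9.21 to 9.61, again with 0 called. Over 7 endothelial markers they were 6.08 to 6.23 in Tfr1-null libraries and 6.34 to 6.62 in controls, without overlap but with 0 called. The 10 dopaminergic markers averaged 12.00 to 12.11 in Tfr1-null libraries and 12.21 to 12.22 in controls, also without overlap and with 0 called. All 10 dopaminergic and all 7 endothelial markers lay below 0 in 12 libraries, against 8436 of 18193 genes. At an unadjusted p under 0.05, 2 dopaminergic and 1 GABAergic marker passed, and 0 of the endothelial or the pericyte and smooth muscle markers. Among all 18193 genes 1934 passed at that level in 12 libraries. The part of endothelial or dopaminergic content in the isoform results was not tested.

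Both isoforms of subunit 4, and the isoforms Cox6b2, Cox8b and Cox8c, did not pass at either age in 12 libraries. Cox4i1, the common isoform of subunit 4, read 13.64, 13.93 and 13.66 in Tfr1-null libraries at 10 weeks, against 13.82, 13.86 and 13.72 in controls 2 to 4 and 13.67 in the library labelled control 10 weeks 1. These groups overlapped, and the difference was -0.06 with a 95% interval of -0.27 to 0.16 (adjusted p = 0.767, limma). Cox4i2, the isoform known to respond to oxygen, was between 5.76 and 5.98 in all libraries titled Tfr1-null and between 5.79 and 5.98 in controls at 3 weeks. At 10 weeks it was 6.61 to 6.88 in Tfr1-null libraries and 6.72 to 6.90 in controls, and its differences in 12 libraries were -0.09 at 3 weeks and 0.00 at 10 weeks. These levels lay below the array medians at both ages, so the flat reading of Cox4i2 is limited by low signal. Cox6b2, a testis isoform, had large differences of -1.15 at 3 weeks and -1.35 at 10 weeks (adjusted p = 0.431 and 0.107, limma). At 3 weeks it read 6.34, 6.13 and 6.31 in Tfr1-null libraries 2 to 4, against 7.37, 7.05 and 7.81 in controls. Every library titled Tfr1-null was below every control at that age. At 10 weeks it read 7.06, 7.47 and 7.69 in Tfr1-null libraries, against 8.05, 10.25 and 7.97 in controls 2 to 4 and 7.69 in the library labelled control 10 weeks 1. Without that library the groups did not overlap, but control 3 stood alone, and with it they overlapped. The SE of Cox6b2 in 12 libraries was 0.49 at both ages, from 1 spread shared by all groups. With all 14 its differences were -0.99 at 3 weeks and -1.08 at 10 weeks, and neither passed. Cox8b, the muscle isoform of subunit 8, differed by 0.04 and -0.11 at the 2 ages and Cox8c, its testis isoform, by 0.09 and -0.04. Cox8c read 6.45 in every library titled Tfr1-null at 3 weeks, without spread, which limits its reading.

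At 10 weeks most of the selected genes were lower in Tfr1-null neurons. Of the genes called as falling in 12 libraries, all but Cox7a1 differed by less than 1 log2 unit. Cox6b2 and Cox7c, at -1.35 and -1.06, did not pass. In 12 libraries 13 of 44 genes fell, which is 29.5%, beside 6.34% of all genes, and 1 rose, which is 2.27%, beside 4.73%. Of the 44, 38 lay below 0, against 9492 of 18193 genes. Every Tfr1-null library was below every control for 30 of the 44 (all genes 12.7%) and above for 2 (all genes 9.87%). The median over the 44 was -0.23, against -0.01 over all genes. With all 14 libraries the median was -0.16 and 40 of 44 genes lay below 0, but limma called only Uqcr11, which fell, beside 0.616% of all genes that fell, 0.594% that rose and 1.21% called in either direction. For 12 of the 44 every library titled Tfr1-null was then below every control (all genes 5.58%) and for 1 above (all genes 4.48%). At an unadjusted p under 0.05, 20 of the 44 and 3612 of all genes passed in that fit.

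The selected genes are mostly bright on the array, and at 10 weeks bright genes were called at a higher rate than all genes. Of the 36 with a mean above 10 log2 units, 12 fell in 12 libraries at 10 weeks, which is 33.3%. Among all 5099 genes of that brightness 10.7% fell and 7.45% rose, with a median of -0.03. With all 14 libraries 1 of the 36 fell (2.78%), beside 1.14% falling and 0.745% rising among the 5099. At 3 weeks in 12 libraries 0 of the 36 passed by limma, and 0 at an unadjusted p under 0.05, beside 0.706% falling and 0.902% rising. The count of 14 calls was 8 without control 3 and 9 without Tfr1-null 1. It was 1, Cox6a2, where the 10-week libraries were fitted without those of 3 weeks, and 3 with array weights.

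In complex III, Uqcr11, Uqcr10, Uqcrh and Uqcrq, which encode small accessory subunits, fell at 10 weeks. In 12 libraries 4 of 9 genes fell (44.4%, all genes 6.34%), 0 rose (all genes 4.73%) and 5 did not pass, and the median was -0.38. Uqcr11, the smallest subunit of the complex, read 12.41, 12.78 and 12.59 in Tfr1-null libraries, against 13.22, 13.43 and 13.19 in controls 2 to 4 and 12.93 in the library labelled control 10 weeks 1. All Tfr1-null libraries lay below all controls as titled, and the doubtful control was the nearest to them. The difference was -0.69 (SE 0.12, adjusted p = 0.00527, limma, 12 libraries), or 0.622-fold. With all 14 it was -0.60 (SE 0.13, adjusted p = 0.0451, limma). That call was kept in only 2 of 14 fits that left out 1 library, those without control 10 weeks 1 and without Tfr1-null 10 weeks 2. At 3 weeks Uqcr11 read 12.19, 12.40 and 12.25 in Tfr1-null libraries 2 to 4 and 12.12 in the library labelled Tfr1-null 3 weeks 1, against 12.00, 12.05 and 12.21 in controls. Those groups overlapped, with a difference of 0.19 in 12 libraries (adjusted p = 0.69, limma).

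Uqcr10, another accessory subunit, read 13.20, 13.39 and 13.15 in Tfr1-null libraries at 10 weeks, against 13.67, 13.77 and 13.68 in controls 2 to 4 and 13.35 in the library labelled control 10 weeks 1. It fell by 0.45 (SE 0.10, adjusted p = 0.0168, limma, 12 libraries), and with all 14 the difference was -0.37 (adjusted p = 0.108, limma). Its other 2 probe sets gave -0.59 and -0.68 in 12 libraries. Uqcrh, the hinge protein at the docking site of cytochrome c, read 13.73, 13.99 and 13.88 in Tfr1-null libraries, against 14.23, 14.45 and 14.25 in controls 2 to 4 and 13.72 in the doubtful control. For both genes the doubtful control overlapped the Tfr1-null libraries and the other controls did not. Uqcrh fell by 0.44 in 12 libraries (SE 0.10, adjusted p = 0.0185, limma), with -0.30 in 14 (adjusted p = 0.269, limma). Uqcrq, which contacts cytochrome b, fell by 0.38 (SE 0.11, adjusted p = 0.0494, limma), with 13.08, 13.16 and 13.09 in Tfr1-null libraries, against 13.32, 13.71 and 13.44 in controls 2 to 4. Its groups did not overlap, but with all 14 libraries the difference was -0.32 (adjusted p = 0.124, limma), and the call in 12 was kept in 1 of 12 fits without 1 library. A dimmer probe set of Uqcrq differed by 1.24, and the mean of its probe sets by 0.21, in the other direction.

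The 3 carriers of heme or an iron-sulfur cluster did not pass on their brightest probe sets. Cyc1, the heme protein cytochrome c1, read 12.75, 12.75 and 12.84 in Tfr1-null libraries, against 13.01, 13.75 and 13.00 in controls 2 to 4 and 12.87 in the library labelled control 10 weeks 1. The groups did not overlap, but control 3 stood apart from its group, and the difference of -0.47 (SE 0.17) had an adjusted p of 0.103 by limma in 12 libraries. Uqcrfs1, the Rieske protein, read 12.07, 12.38 and 12.35 in Tfr1-null libraries, against 12.39, 12.73 and 12.53 in controls 2 to 4, a difference of -0.29 (SE 0.12, adjusted p = 0.144, limma). Cycs read 13.08, 12.99 and 13.14 in Tfr1-null libraries, against 13.30, 13.32 and 13.36 in controls 2 to 4 and 12.88 in the library labelled control 10 weeks 1. Its Tfr1-null libraries lay below controls 2 to 4, with a difference of -0.25 (SE 0.08, adjusted p = 0.0819, limma). A dim probe set of Cycs gave -0.72 in 12 libraries (SE 0.10, adjusted p = 0.00208, limma over probe sets). With all 14 the same probe set gave -0.001 (SE 0.54) and did not pass. Its other 2 probe sets gave -0.19 and -0.28 in 12 libraries and did not pass. At 3 weeks these 3 genes differed by 0.02, -0.07 and 0.03 in 12 libraries. Of the remaining genes of complex III, the core proteins Uqcrc1 and Uqcrc2 differed by 0.15 and 0.12 at 10 weeks and Uqcrb by -0.08 (adjusted p = 0.292, 0.436 and 0.613, limma). A second probe set of Uqcrb gave -0.41 in 12 libraries (adjusted p = 0.0412, limma over probe sets), so the 2 probe sets of that gene disagreed. With all 14 the second gave -0.58 and did not pass (adjusted p = 0.0881, limma over probe sets).

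In complex IV, 3 of 17 genes fell (17.6%, all genes 6.34%) in 12 libraries at 10 weeks. A rise was called for 1 (5.88%, all genes 4.73%), 13 did not pass, and the median was -0.18. Beside Cox7a1 and Cox6a2, described above, the called genes were Cox7a2 and Cox5a. Cox7a2, the common isoform of subunit 7a, read 14.13, 14.19 and 14.32 in Tfr1-null libraries, against 14.70, 14.59 and 14.66 in controls 2 to 4 and 14.34 in the library labelled control 10 weeks 1. All Tfr1-null libraries were below all controls as titled. Cox7a2 fell by 0.44 (SE 0.08, adjusted p = 0.00917, limma, 12 libraries), and with all 14 the difference was -0.36 (adjusted p = 0.0842, limma). Both isoforms of subunit 7a were thus lower at 10 weeks, whereas at 3 weeks Cox7a2 differed by 0.08 and only Cox7a1 had passed. Whether the 2 isoforms differ from each other was not tested.

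Cox5a, a subunit on the matrix side, read 14.12, 13.95 and 13.97 in Tfr1-null libraries, against 14.25, 14.31 and 14.35 in controls 2 to 4 and 14.05 in the library labelled control 10 weeks 1. It fell by 0.29 (SE 0.08, adjusted p = 0.0459, limma, 12 libraries), with no overlap beyond the doubtful control, and with all 14 the difference was -0.22 (adjusted p = 0.184, limma). Its other 2 probe sets differed by -0.15 and -0.13 and did not pass, and the call was kept in 1 of 12 fits that left out 1 library. Cox7c was too dim to judge, since its probe set lay under the 25th percentile of the array in all 3-week libraries. At 10 weeks it read 6.42, 5.54 and 5.85 in Tfr1-null libraries, against 7.03, 6.48 and 7.48 in controls 2 to 4, a difference of -1.06 (adjusted p = 0.0803, limma). Cox7a2l, which takes part in joining complexes III and IV, differed by 0.02 at both ages. Of the other common subunits, Cox6b1, which bridges the dimer, differed by -0.26 and Cox8a by -0.37 at 10 weeks (adjusted p = 0.0686 and 0.0937, limma). Cox5b, which binds zinc, Cox6a1 and Cox6c differed by -0.12, -0.14 and -0.18 and did not pass. Cox7b2, a testis isoform, was under the 25th percentile in all Tfr1-null libraries at 10 weeks and differed by -0.67 (adjusted p = 0.228, limma). The catalytic subunits of complex IV are encoded in mitochondrial DNA and were not analysed here.

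In complex V, 6 of 17 genes fell (35.3%, all genes 6.34%), 0 rose (all genes 4.73%) and 11 did not pass in 12 libraries at 10 weeks. The median was -0.17. The genes for the catalytic head were not among those that fell. Atp5a1, the alpha subunit, read 14.61, 14.60 and 14.55 in Tfr1-null libraries, against 14.48, 14.41 and 14.46 in controls 2 to 4 and 14.52 in the library labelled control 10 weeks 1. Every Tfr1-null library was above every control, but the difference of 0.14 (SE 0.07) did not pass (adjusted p = 0.273, limma). Other probe sets of Atp5a1 gave 0.10 and -0.05 in 12 libraries and did not pass, so the direction depended on the probe set. Atp5b, the catalytic beta subunit, differed by -0.10 (adjusted p = 0.468, limma), and Atp5c1, the gamma subunit of the rotor, by -0.07 (adjusted p = 0.696, limma).

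Atp5e, the epsilon subunit of the rotor stalk, had the largest fall in complex V in 12 libraries, and in all 14 Atp5l and Atp5g1 had larger differences. It read 13.27, 13.42 and 13.40 in Tfr1-null libraries, against 13.86, 14.02 and 13.91 in controls 2 to 4 and 13.28 in the library labelled control 10 weeks 1. The doubtful control was within the Tfr1-null range. The difference was -0.57 (SE 0.09, adjusted p = 0.00344, limma, 12 libraries), or 0.674-fold, and -0.41 with all 14 (adjusted p = 0.157, limma). At 3 weeks it was -0.10 in 12 libraries, with 12.55, 12.71 and 12.61 in Tfr1-null libraries 2 to 4 and 12.72 in the library labelled Tfr1-null 3 weeks 1, against 12.65, 12.69 and 12.82 in controls. Those ranges overlapped. Atp5d, the delta subunit that sits beside it, differed by 0.14 at 3 weeks and -0.16 at 10 weeks and passed at neither age.

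Of the 3 genes for the proton-conducting c ring, 2 fell. Atp5g1 read 13.18, 13.39 and 13.43 in Tfr1-null libraries, against 13.75, 13.87 and 13.93 in controls 2 to 4 and 13.43 in the library labelled control 10 weeks 1, a difference of -0.52 (SE 0.10, adjusted p = 0.00946, limma, 12 libraries). Atp5g2 read 11.84, 11.77 and 11.86 in Tfr1-null libraries, against 12.16, 12.29 and 12.39 in controls 2 to 4, a difference of -0.46 (SE 0.10, adjusted p = 0.0149, limma). Neither gene overlapped between the groups in 12 libraries. With all 14 the differences were -0.41 and -0.36 (adjusted p = 0.0925 and 0.124, limma). A dim second probe set of Atp5g1 gave 0.71, and the mean of its probe sets turned the difference to 0.10. The third, Atp5g3, differed by -0.20 (adjusted p = 0.146, limma). The 3 genes encode the same mature protein, and their summed RNA was not measured.

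Among subunits of the peripheral stalk and the membrane part, Atp5j, the coupling factor of the stalk, fell by 0.37 (SE 0.09, adjusted p = 0.0226, limma). It read 13.42, 13.58 and 13.58 in Tfr1-null libraries, against 13.82, 14.01 and 13.86 in controls 2 to 4. Atp5l, the membrane subunit g, fell by 0.53 (SE 0.12, adjusted p = 0.018, limma), with 12.67, 13.03 and 12.88 in Tfr1-null libraries, against 13.22, 13.49 and 13.47 in controls 2 to 4. Atp5mpl, a small proteolipid of the membrane part, fell by 0.47 (SE 0.11, adjusted p = 0.0185, limma), and read 13.08, 13.13 and 13.34 in Tfr1-null libraries, against 13.60, 13.77 and 13.57 in controls 2 to 4. The groups of all 3 genes were separate in 12 libraries. With all 14 the differences of Atp5j, Atp5l and Atp5mpl were -0.28, -0.48 and -0.38 (adjusted p = 0.165, 0.0573 and 0.104, limma). The stalk subunits Atp5o, Atp5pb and Atp5h differed by -0.16, -0.12 and -0.06 and did not pass. A second probe set of Atp5h gave -0.47 in 12 libraries (adjusted p = 0.0212, limma over probe sets), so for this gene the call depended on the probe set. With all 14 the second gave -0.37 and did not pass (adjusted p = 0.124, limma over probe sets). In the membrane part, Atp5k, the subunit e that pairs with g in joining dimers, differed by -0.31 in 12 libraries (adjusted p = 0.0716, limma). Another of its probe sets gave -0.38 in 12 (adjusted p = 0.0464, limma over probe sets). With all 14 that probe set gave -0.31 and did not pass (adjusted p = 0.149, limma over probe sets). Atp5j2, the subunit f, and Atp5md differed by -0.17 and -0.11 and did not pass.

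**Figure D2:**
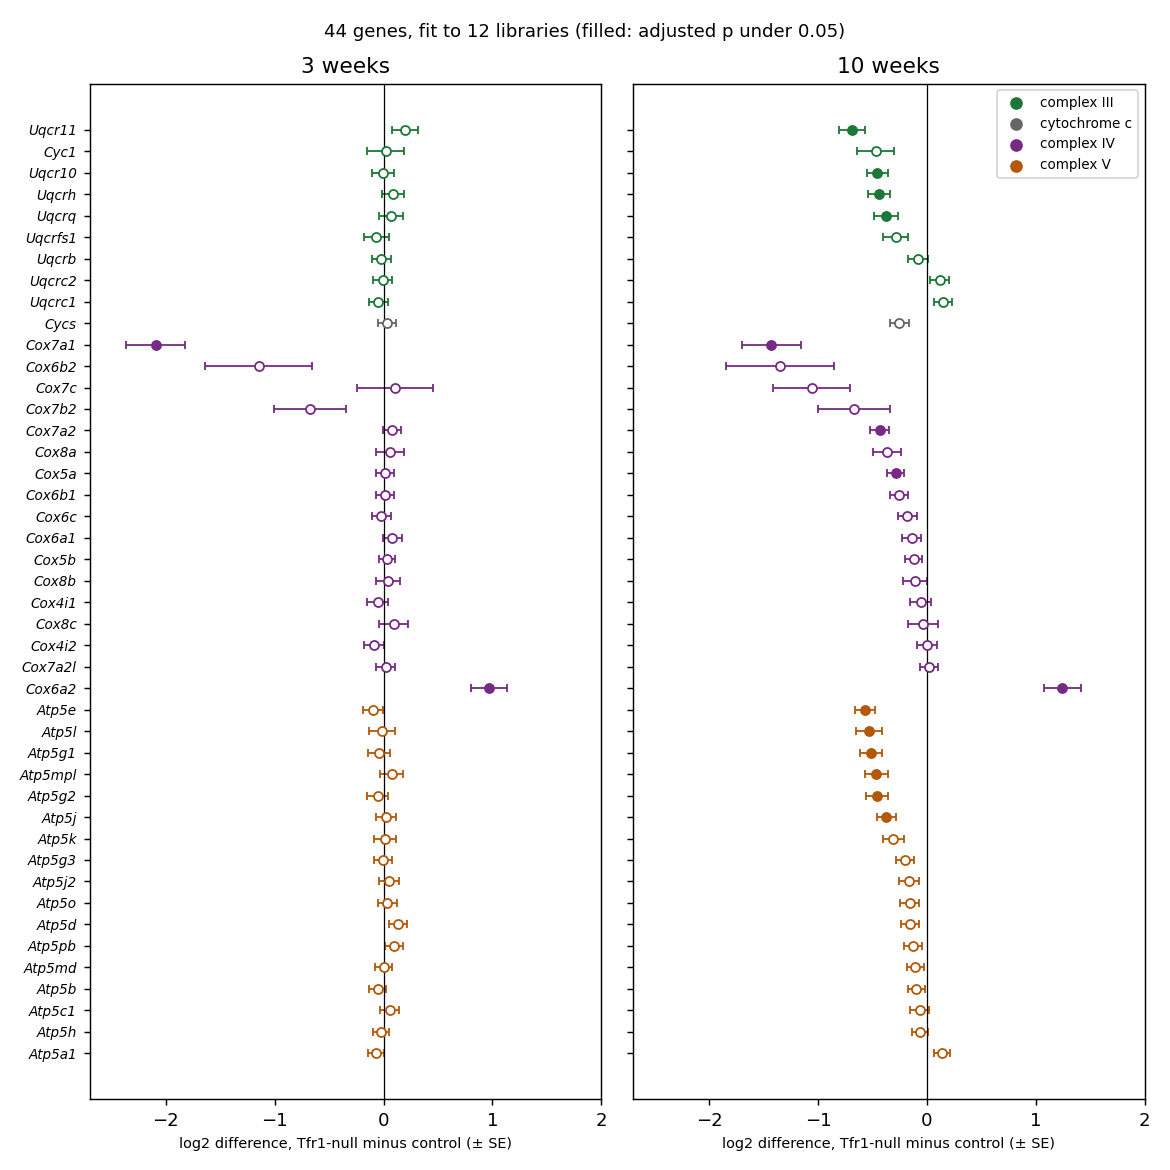
Log2 difference, Tfr1-null minus control, with its SE (x axis) for the 44 genes (y axis) at 3 weeks (left) and 10 weeks (right), from the fit to 12 libraries; filled points passed an adjusted p of 0.05. At 3 weeks only Cox7a1 and Cox6a2 are filled, and at 10 weeks 13 filled points lie left of 0 and that of Cox6a2 right of it.

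The 3 complexes were set side by side by the median over their genes in each library, relative to the mean of the controls of that age without the doubtful one. At 10 weeks complex III stood at -0.48, -0.31 and -0.40 in Tfr1-null libraries 1 to 3, complex IV at -0.18, -0.10 and -0.27, and complex V at -0.29, -0.15 and -0.13. Complex III was the lowest of the 3 in each of these libraries. Controls 2 to 4 stood at -0.06, 0.14 and -0.05 for complex III, between -0.02 and 0.01 for complex IV and between -0.05 and 0.02 for complex V. The library labelled control 10 weeks 1 stood at -0.32, -0.13 and -0.18 for complexes III, IV and V, among the Tfr1-null libraries for each complex. The order of the complexes is a description and was not tested: the median of complex III in 12 libraries was -0.22 without control 3. Its share of falling genes was 4 of 9, against 3 of 17 and 6 of 17 in complexes IV and V, beside 6.34% of all genes. At 3 weeks the medians lay between -0.03 and 0.10 in the libraries titled Tfr1-null and between -0.06 and 0.05 in controls.

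**Figure D3:**
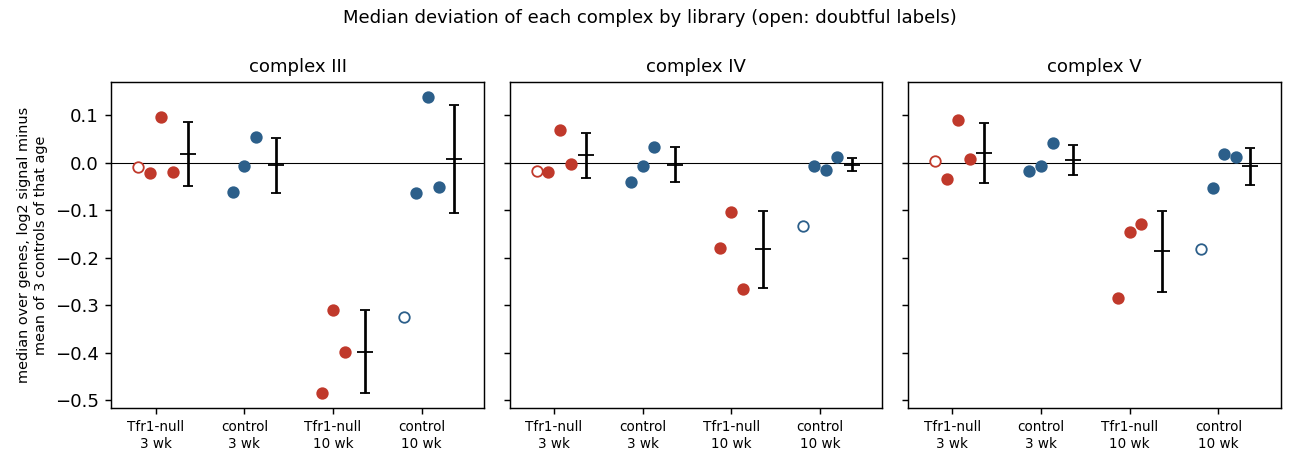
Median over the genes of complexes III, IV and V (panels) of log2 signal minus the mean of the 3 controls of that age (y axis), by genotype and age (x axis), 1 point per library; open circles are the 2 libraries with doubtful labels, and bars are mean and SD of the filled points. At 10 weeks the Tfr1-null points of each complex lie below controls 2 to 4, those of complex III at -0.48 to -0.31.

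A test of the difference between the ages called 0 of the 44 genes in either set of libraries, by limma's interaction contrast. In 12 libraries 52 of all genes were called (0.286%), and at an unadjusted p under 0.05 the counts were 18 of 44 and 2220 of all genes. With all 14 libraries 0 genes were called in all (0%), and at an unadjusted p under 0.05 they were 8 of 44 and 1360 of all. For Uqcr11 the difference between the ages was -0.88 (SE 0.17, adjusted p = 0.0719, limma, 12 libraries). A fall that passed at 10 weeks and not at 3 weeks is therefore not shown to differ between the ages.

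**Figure D4:**
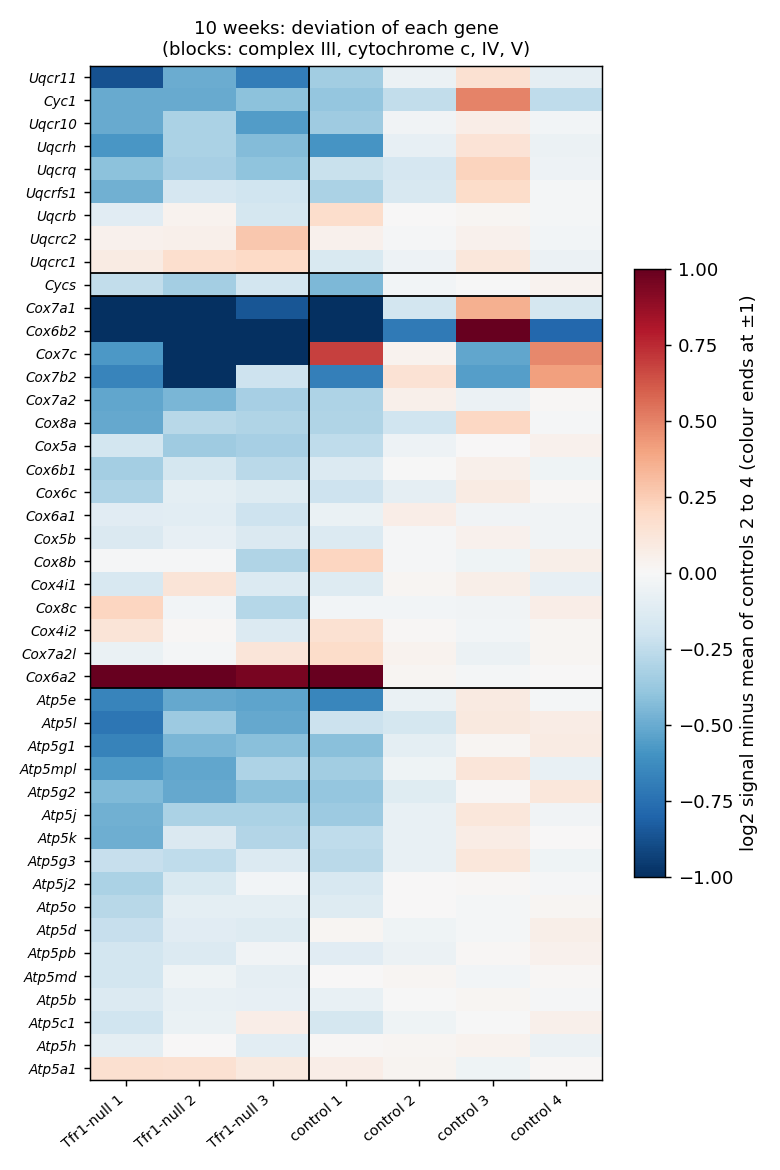
Log2 signal of each of the 44 genes (rows, in blocks for complex III, cytochrome c, complex IV and complex V) in the 7 libraries of 10 weeks (columns), minus the mean of controls 2 to 4; blue is lower, red is higher, and colours end at ±1. In most rows the library labelled control 10 weeks 1 has the colour of the Tfr1-null libraries, as in Cox6a2 (9.18, against 8.94 to 9.42 in Tfr1-null libraries and 7.97 to 8.01 in the other controls).

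Factors that assemble these complexes were read from related lists. Of 6 factors for complex III, 2 fell in 12 libraries at 10 weeks, where 6.34% of all genes fell and 4.73% rose. Uqcc1, which helps make cytochrome b, read 10.86, 11.11 and 11.10 in Tfr1-null libraries, against 11.57, 11.96 and 11.69 in controls 2 to 4 and 11.34 in the library labelled control 10 weeks 1. Its groups did not overlap, and it passed in both sets, at -0.72 (SE 0.11, adjusted p = 0.00344, limma) in 12 libraries and -0.61 (adjusted p = 0.0424, limma) in 14. Uqcc3 fell by 0.62 in 12 libraries (adjusted p = 0.013, limma), with -0.47 in 14 (adjusted p = 0.166, limma). The list for complex IV holds assembly factors, only some of which deliver copper or heme, and 18 of its genes were measured. Of these 18, 3 fell and 0 rose in 12 libraries at 10 weeks, with a median of -0.25. The 3 were Cox19 at -0.58, Cox16 at -0.61 and Coa6 at -0.41 (adjusted p = 0.0134, 0.0305 and 0.0371, limma, 12 libraries). Cox19 also passed with all 14 libraries, at -0.53 (adjusted p = 0.0469, limma), whereas Cox16 and Coa6 did not, at -0.50 and -0.34 (adjusted p = 0.124 and 0.121, limma). With so few genes in each list these counts are a description, as is the median of -0.01 over all genes beside that of the 18. Of 4 genes for complex V assembly and inhibition, only Atpif1, the inhibitor of reverse ATP hydrolysis, passed, at -0.31 in 12 libraries (adjusted p = 0.0324, limma), with -0.23 in 14 (adjusted p = 0.211, limma).

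Complex II is the iron-sulfur and heme enzyme that feeds electrons into complex III. Its list of 6 genes, which includes the assembly factors Sdhaf1 and Sdhaf2, had 0 called by limma in either fit at either age. At 10 weeks in 12 libraries 11.1% of all genes were called, so 0 of 6 is a description only. The median of the 6 in that fit was -0.004, and Sdhc differed by -0.37 (adjusted p = 0.156, limma). At an unadjusted p under 0.05, 1 of the 6 passed in that fit and 0 in the other 3. Hccs, which attaches heme to cytochrome c, differed by -0.30 and did not pass. Among 5 genes that bind complex IV or respond to oxygen, Lonp1 rose at both ages in 12 libraries and passed at neither in 14. Lonp1 is a mitochondrial protease known from human cells to degrade Cox4i1 at low oxygen. It read 11.68, 11.45 and 11.66 in Tfr1-null libraries at 10 weeks, against 10.41, 10.50 and 10.30 in controls 2 to 4 and 11.51 in the library labelled control 10 weeks 1. The difference was 0.64 (SE 0.12, adjusted p = 0.0242, limma) at 3 weeks and 1.19 (SE 0.12, adjusted p = 0.000255, limma) at 10 weeks, in 12 libraries. With all 14 it was 0.50 at 3 weeks (adjusted p = 1, limma) and 0.92 at 10 weeks (adjusted p = 0.0842, limma). In those 12 libraries it was the only gene of all related lists that passed at 3 weeks. The RNA differences of Cox4i1 and Cox4i2 given above did not pass at either age. Protein was not measured, so these RNA levels cannot show whether Cox4i1 protein was degraded.

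Most markers of dopaminergic neurons were lower beside these results at 10 weeks. In 12 libraries 8 of 10 lay below 0, while Nr4a2 and En1 differed by 0.10 and 0.01. The mean over the 10 was 12.58 to 12.88 in Tfr1-null libraries and 13.00 to 13.35 in controls 2 to 4. Pitx3 read 12.42 in control 3, whose mean was the highest, against 8.99 and 9.30 in controls 2 and 4. Beside 6.34% of all genes and 10.7% of those with a mean above 10 log2 units, 3 of the 10 fell by limma. These were Drd2, the dopamine autoreceptor, at -0.85, Ddc, which makes dopamine from its precursor, at -0.32, and the aldehyde dehydrogenase Aldh1a1 at -0.28 (adjusted p = 0.00188, 0.0488 and 0.0493, limma). With all 14 libraries they were -0.58, -0.24 and -0.21, and none passed (adjusted p = 0.171, 0.224 and 0.224, limma). Of 6 GABAergic markers 1 rose in 12 libraries, beside 4.73% of all genes. This was Slc32a1, the vesicular GABA transporter, at 0.70 (adjusted p = 0.0071, limma), with 0.49 in 14 (adjusted p = 0.197, limma). The GABAergic list mean was 10.40 to 10.73 in Tfr1-null libraries and 9.99 to 10.91 in controls. None of 8 astrocyte, 7 oligodendrocyte, 8 microglia, 7 endothelial, 8 pericyte, 3 erythrocyte or 5 glutamatergic markers was called by limma in 12 libraries. At an unadjusted p under 0.05, 8 of the 10 dopaminergic and 1 of the 6 GABAergic markers passed in that fit. For the other lists the counts were 2 for astrocytes, 2 for microglia, and 1 each for endothelial cells, pericytes and glutamatergic neurons. They were 0 for oligodendrocytes and erythrocytes. Among all 18193 genes 4801 passed at that level in 12 libraries. The astrocyte mean was 9.88 to 10.59 in Tfr1-null libraries and 9.74 to 10.36 in controls 2 to 4, and that of microglia 7.80 to 8.20 and 7.54 to 8.05. Of all marker genes 1, a glutamatergic one, lay under the 25th percentile of the array in every library. The part of cell content in the falls of the respiratory genes was not tested, and fewer dopaminergic neurons cannot be told apart from less RNA per neuron in these pooled precipitates.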

How the data were processed

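The values were deposited log2 signals, 1 column per library, which the authors made with RMA in Partek 6.5, per the submitters' processing notes. Per the labels' protocols, 50 ng of RNA was amplified with a NuGEN Ovation kit and hybridized to Affymetrix arrays. Genome build and raw scans were not used here. A single symbol named 34958 of 45101 probe sets; 932 had several symbols and 9211 had no symbol. Of the named ones, 13 control probe sets were left out, and each gene was represented by its brightest probe set. The 44 genes had 87 probe sets. Their names are those of the array annotation, and updating them changed no member.

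Groups follow the titles. limma 3.58.1 (lmFit, eBayes) in R 4.3.3 fitted 4 group means over all 18193 genes, with Benjamini-Hochberg adjustment over all genes and a threshold of 0.05, once to 14 and once to 12 libraries (residual degrees of freedom 10 and 8). The fit was tested on simulated data. SE is the moderated standard error of a difference, intervals are 95%, and the number of arrays limits the precision. Some probe sets can also read related transcripts, among them those of Atp5e, Uqcrh, Uqcrq and Cox7c.

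The genes, lists, library sets and tests were chosen with earlier results of these data known. Named with values were called genes, the largest rise and fall of each complex, carriers of heme or iron-sulfur clusters, subunit 4 isoforms and at most 4 called genes of each related list. Further genes were named for their role after their values had been seen. Same-numbered libraries of the 2 genotypes had correlations of -0.03 to 0.09 in their deviations from the group means with 14 libraries, so the numbers were not taken to pair them. Alternatives were a replicate block, array weights, a trended robust prior, the mean of the probe sets, a filter on dim genes, median centring, quantile normalization within each age, updated symbols, each age alone, and each library left out. Figures were drawn with Python 3.11.15, pandas 2.3.3, numpy 2.4.6 and matplotlib 3.10.9.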

Additional observations from a re-analysis of the deposited data

Results flagged for a closer look

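Of 50 groups of 4 libraries, over 22 genes named with values and the medians of the 3 complexes, 4 held 1 library far from the other 3 by Dixon's ratio of gap to range (critical value 0.829). Chance flags about 1 in 20 groups. Cox6a2 in controls at 10 weeks had a ratio of 0.971, from the library labelled control 10 weeks 1, which read 9.18, against 7.97 to 8.01 in the other controls. Cycs in the same group had a ratio of 0.861, and that library read 12.88, against 13.30 to 13.36. Cyc1 in controls at 10 weeks had a ratio of 0.846 from control 3, with 13.75, against 12.87 to 13.01. Atp5mpl in libraries titled Tfr1-null at 3 weeks had a ratio of 0.884 from replicate 3, with 12.85, against 12.70 to 12.72.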

How the results depend on the processing

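At 10 weeks, the single call among all 14 libraries was lost (0 genes) with the replicate block, array weights, the mean of the probe sets and each age alone, and became 3 genes with a trended robust prior; leaving out 1 library gave 0 to 13, the 13 without control 10 weeks 1. In 12 libraries the 14 calls became 6 with the replicate block, 3 with array weights and 1 with each age alone, and 8 to 14 when 1 library was left out. At 3 weeks, array weights gave 2 calls in place of 0 in 14 libraries, and leaving out 1 of 12 libraries gave 1 to 3 calls in place of 2. For the difference between the ages in 12 libraries, the trended robust prior gave 2 calls in place of 0, and leaving out 1 library gave 0 to 1. With the mean of the probe sets the 10-week medians were -0.29 for complex III and -0.13 for complex IV in 12 libraries, and -0.11 for complex IV in 14, and 2 genes reversed in 12 libraries, Atp5g1 to 0.10 and Uqcrq to 0.21, each with a dim probe set of opposite direction. Without 1 library the medians in 12 libraries at 10 weeks were -0.46 to -0.22 for complex III, -0.23 to -0.16 for complex IV and -0.23 to -0.12 for complex V. In 12 libraries Cox7a1 at 3 weeks and Cox6a2 at 10 weeks passed in 9 of 9 alternatives and 12 of 12 fits without 1 library; Cox5a and Uqcrq at 10 weeks passed in 3 and 4 alternatives and in 1 such fit each. The cause of these changes was not tested. Signals near background limit Cox7c and Cox7b2, and low signals limit the flat readings of Cox4i2 and Cox8c.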
